A study of Mus musculus with 10 samples.

Results

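The genes described here carry glucose into the cell, break it down to pyruvate, turn pyruvate into lactate or pass it into mitochondria, in regulatory T cells (Tregs) of the mouse spleen. They were chosen by name as 35 genes of glycolysis, lactate handling and pyruvate entry, and 31 of them were measured, among 19938 genes in all. A member was measured where a probe set of the array carried its symbol and no other, and its brightest probe set was used. Gapdh was listed only in probe sets that name several genes, and Gpi1, Pfkfb1 and Mpc2 were not analysed here.

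In glycolysis, glucose enters through transporters, is trapped as a phosphate by hexokinase, committed by phosphofructokinase and cleaved to triose phosphates, which yield ATP and pyruvate. Pyruvate either becomes lactate through lactate dehydrogenase or enters mitochondria through the pyruvate carrier for the pyruvate dehydrogenase complex, which the Pdk kinases switch off. The oxygen-regulated transcription factor HIF-1, whose alpha subunit is encoded by Hif1a, induces many of these genes, and in Tregs glycolysis is known for its ties to activation, migration and proliferation.

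Tregs were sorted by flow cytometry from spleens of female C57BL/6 mice of 9 to 14 weeks, as CD4 cells that carried an RFP reporter of Foxp3, the transcription factor that defines Tregs. FR1 cells were CD62Lhi CD69- Klrg1- (n = 2 arrays), FR2 cells CD62Llo CD69- Klrg1- (n = 2), FR3 Klrg1- cells CD62Llo CD69+ Klrg1- (n = 4) and FR3 Klrg1+ cells CD62Llo CD69+ Klrg1+ (n = 1). CD62L is a homing receptor of resting cells, CD69 an early activation marker and Klrg1 a receptor of terminally differentiated cells. No agent or disease model is named for any group, and all carried the reporter. The labels do not say whether animals were pooled. Replicates are labelled as biological, but nothing ties them to separate mice, so p-values measure the spread between these samples.

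Values are RMA intensities on the log2 scale. The arrays fell into 2 sets: FR1, FR2 and FR3 Klrg1- replicates 1 and 2 in the first, and FR3 Klrg1- replicates 3 and 4 and FR3 Klrg1+ in the second. Across genes, arrays of the same set correlated at 0.980 to 0.995 and arrays of different sets at 0.925 to 0.946. Subsets were therefore compared within a set, in 1 limma fit over the 9 arrays with a mean for each subset in each set. A change is called at a Benjamini-Hochberg adjusted p under 0.05 over all 19938 genes. The T cell markers averaged 10.8 to 11.4 and the Treg markers 10.5 to 11.0 on these arrays, against 7.19 at most for any other cell type list. Klrg1 followed its gate (12.33 in FR3 Klrg1+ and at most 7.47 elsewhere). The transcript Cd69 did not follow its own in the first set, where it lay between 11.86 and 12.41 on every array.

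Starting sequences of the genes are shown for 6 members that changed in the comparisons below, since several members are known HIF-1 targets and HIF-1 binds DNA at a short core. The stretches run from 250 bases before to 50 bases after an annotated start (RefSeq, GRCm38.p6) and are written 5′ to 3′ on the gene's strand. Capitals mark every ACGTG or GCGTG on either strand, the forms of the HIF core, so that CACGTG, the E-box, counts on both strands. Where a gene had several starts, the one farthest upstream is shown. Hif1a, Hk2 and Tpi1 rose from FR1 to FR3 Klrg1- cells, Slc2a1 and Pdk1 fell there, and Ldha was lower in FR3 Klrg1+ cells.
Hif1a, chr12:73907617-73907916, + strand: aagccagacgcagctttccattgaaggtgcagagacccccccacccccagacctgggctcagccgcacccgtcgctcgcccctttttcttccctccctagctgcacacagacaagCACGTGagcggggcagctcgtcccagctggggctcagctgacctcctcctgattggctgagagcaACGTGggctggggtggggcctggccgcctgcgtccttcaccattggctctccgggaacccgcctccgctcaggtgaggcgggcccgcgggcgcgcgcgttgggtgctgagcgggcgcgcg
Hk2, chr6:82774405-82774704, - strand: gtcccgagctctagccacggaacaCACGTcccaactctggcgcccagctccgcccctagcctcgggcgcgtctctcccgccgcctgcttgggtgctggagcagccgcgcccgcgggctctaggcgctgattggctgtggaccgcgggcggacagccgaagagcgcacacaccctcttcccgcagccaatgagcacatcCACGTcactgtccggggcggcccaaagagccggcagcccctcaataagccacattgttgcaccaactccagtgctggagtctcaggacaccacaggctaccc
Tpi1, chr6:124814109-124814408, - strand: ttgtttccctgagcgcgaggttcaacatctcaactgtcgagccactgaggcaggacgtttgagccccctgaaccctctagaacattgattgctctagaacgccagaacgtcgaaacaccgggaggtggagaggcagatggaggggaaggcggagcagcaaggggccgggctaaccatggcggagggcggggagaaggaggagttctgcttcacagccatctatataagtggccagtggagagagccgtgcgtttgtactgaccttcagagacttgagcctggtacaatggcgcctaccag
Slc2a1, chr4:119108495-119108794, + strand: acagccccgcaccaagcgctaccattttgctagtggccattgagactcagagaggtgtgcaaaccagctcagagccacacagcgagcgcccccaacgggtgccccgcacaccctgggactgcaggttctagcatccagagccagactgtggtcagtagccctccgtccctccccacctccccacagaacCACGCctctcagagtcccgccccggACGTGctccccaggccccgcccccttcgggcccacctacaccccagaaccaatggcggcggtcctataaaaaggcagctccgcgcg
Pdk1, chr2:71872974-71873273, + strand: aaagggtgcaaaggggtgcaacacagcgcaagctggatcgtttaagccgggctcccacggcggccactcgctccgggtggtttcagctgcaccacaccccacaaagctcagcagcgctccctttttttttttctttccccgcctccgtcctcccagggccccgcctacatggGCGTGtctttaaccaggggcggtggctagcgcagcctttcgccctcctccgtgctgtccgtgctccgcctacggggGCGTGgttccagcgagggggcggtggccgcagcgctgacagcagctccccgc
Ldha, chr7:46845554-46845853, + strand: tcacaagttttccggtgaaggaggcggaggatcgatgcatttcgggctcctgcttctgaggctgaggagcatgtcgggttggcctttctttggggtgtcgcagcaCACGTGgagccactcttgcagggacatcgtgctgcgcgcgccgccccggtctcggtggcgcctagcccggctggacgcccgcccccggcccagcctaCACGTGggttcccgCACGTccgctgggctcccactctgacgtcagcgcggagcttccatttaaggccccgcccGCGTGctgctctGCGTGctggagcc

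The Ldha stretch held 5 matches to ACGTG and 2 to GCGTG, the Hif1a stretch 3 and 0, the Hk2 stretch 2 and 0, and the Slc2a1 stretch 1 of each. The Pdk1 stretch held 0 and 2, and the Tpi1 stretch held neither motif. ACGTG stood in 23 of the 52 start regions listed for 34 of the 35 members (44.2%), against 19.6% of all 32851 start regions of the same length. The motif GCGTG stood in 25 (48.1%, against 32.4%) and CACGTG in 7 (13.5%, against 7.15%). These are matches of letters, and the shares were neither tested nor adjusted for base composition. Repeated regions were removed from the count of all start regions but not from that of the members. Among the genes shown, both some that rose and some that fell held one of these motifs. A link between motif and direction was not tested.

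Of the 31 measured members, 12 were called in at least 1 of the 4 comparisons between subsets and 19 in none. Of all genes, 4.26% were called in FR2 against FR1, 4.75% in FR3 Klrg1- against FR2, 8.19% in FR3 Klrg1- against FR1 and 4.96% in FR3 Klrg1+ against FR3 Klrg1-. These shares are for single comparisons, so the count of 12 over all 4 cannot be set against them. Hif1a was the only member called in all 4, and Eno3 was called in 3. The largest absolute change among the 19 was 0.57, for Pdk2 in FR3 Klrg1+. Subset comparisons share arrays, so their values are not independent. The RNA is from bulk cells, so fewer cells of a type and less RNA per cell cannot be told apart.

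**Figure D1:**
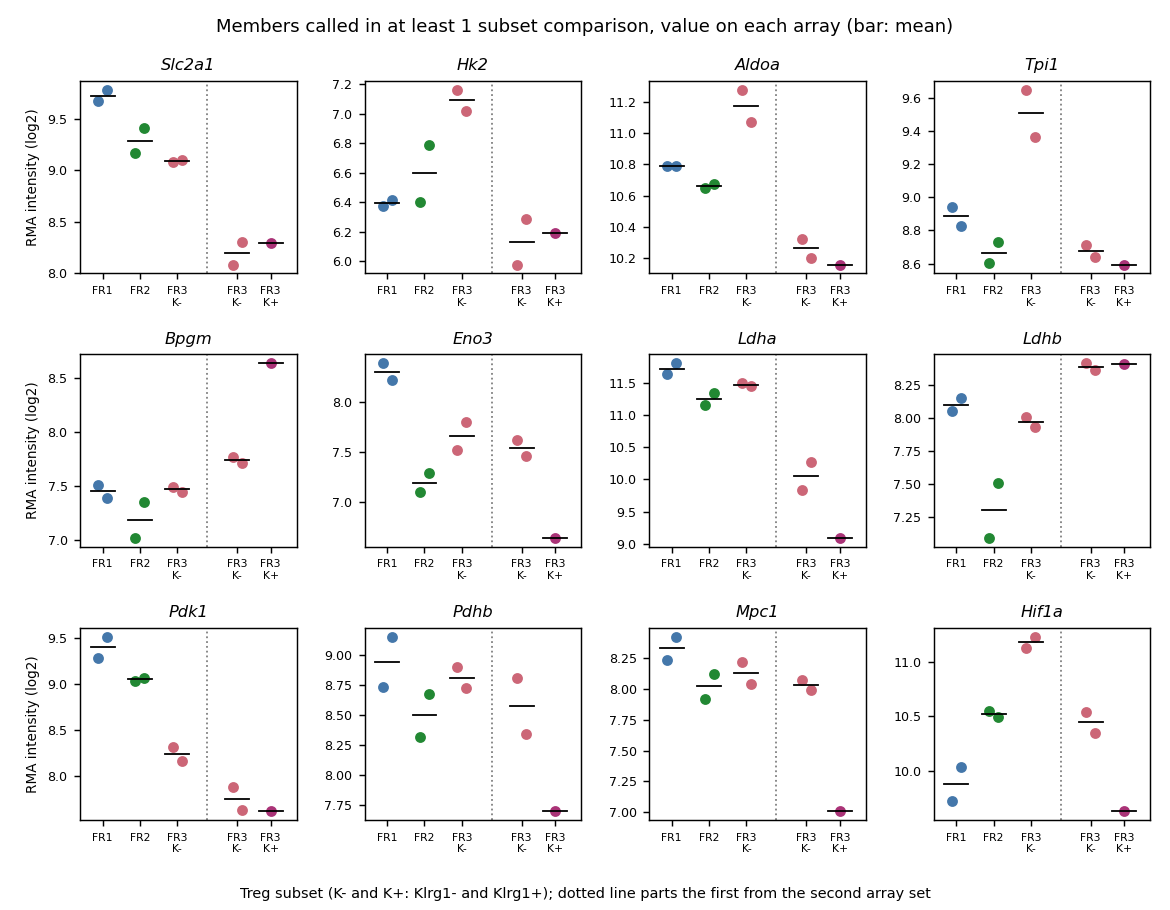
Value of the 12 members called in at least 1 subset comparison on each of the 9 grouped arrays (y axis, RMA intensity, log2; x axis, Treg subset), with a bar at the mean and a dotted line between the array sets. Hif1a stands at 9.72 and 10.04 in FR1 and at 11.13 and 11.24 in FR3 Klrg1- of the first set, while Pdk1 runs the other way, from 9.28 and 9.52 to 8.31 and 8.16.

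The comparison of FR2 with FR1 asks how CD62Llo Tregs differ from CD62Lhi Tregs when both lack CD69 and Klrg1. In FR2 cells the transcript of Hif1a was higher, and those of Eno3, the muscle enolase isozyme, and Ldhb, the lactate dehydrogenase subunit that favours pyruvate formation, were lower. Over all genes 1.96% were called higher and 2.3% lower. Of the 31 members, 1 was called higher and 2 lower. Their median change was -0.21, against 0.02 over all genes, and 25 of the 31 values lay below 0, as did 9008 of 19938. Arrays did not overlap for 2 members that were higher and 20 that were lower, as for 25.4% and 23.1% of all genes. With quantile normalization 418 genes were called higher and 318 lower, in place of 391 and 459.

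Hif1a stood at 9.72 and 10.04 in FR1 and at 10.55 and 10.49 in FR2, so that the arrays did not overlap. It rose by 0.64 ± 0.14 (SE, n = 2 and 2; limma adjusted p = 0.0175). Eno3 stood at 8.39 and 8.22 in FR1 and at 7.09 and 7.28 in FR2. Both FR2 arrays lay below both FR1 arrays, and Eno3 fell by 1.12 ± 0.14 (limma adjusted p = 0.000278). Ldhb stood at 8.05 and 8.15 in FR1 and at 7.09 and 7.51 in FR2, with the FR2 arrays lower and farther apart. It fell by 0.80 ± 0.15 (limma adjusted p = 0.00516). A dimmer probe set of Ldhb gave -0.49 ± 0.20.

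No other member was called, while Pdhx, a gene outside the members described below, was called lower. Ldha, the subunit that favours lactate, had 11.64 and 11.81 in FR1 and 11.17 and 11.36 in FR2, a difference of -0.47 ± 0.15 (limma adjusted p = 0.11). Slc2a1, the glucose transporter GLUT1, had 9.68 and 9.79 against 9.17 and 9.41 (-0.44 ± 0.14, limma adjusted p = 0.0906). All 6 measured members of pyruvate entry had values below 0, from -0.45 for Pdhb, a subunit of pyruvate dehydrogenase, to -0.22 for Dlat, its acetyltransferase. In limma 0 of these 6 passed, and 5 had an unadjusted p under 0.05, as did 1905 of 19938 genes in this direction. The FR2 arrays lay below the FR1 arrays for all 6, as for 23.1% of all genes. The 3 phosphofructokinase subunits lay between -0.32 for Pfkm and 0.10 for Pfkp, and the transporter Slc2a3 at -0.05 (95% interval -0.36 to 0.26).

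The call of Hif1a ended without FR1 replicate 1 (adjusted p = 0.159) or either FR2 array (0.173 and 0.0764), and that of Ldhb without FR1 replicate 2 (0.0671) or FR2 replicate 1 (0.121). The call of Eno3 was kept in each of the 8 fits that left out 1 array, with an adjusted p of 0.0115 at most.

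**Figure D2:**
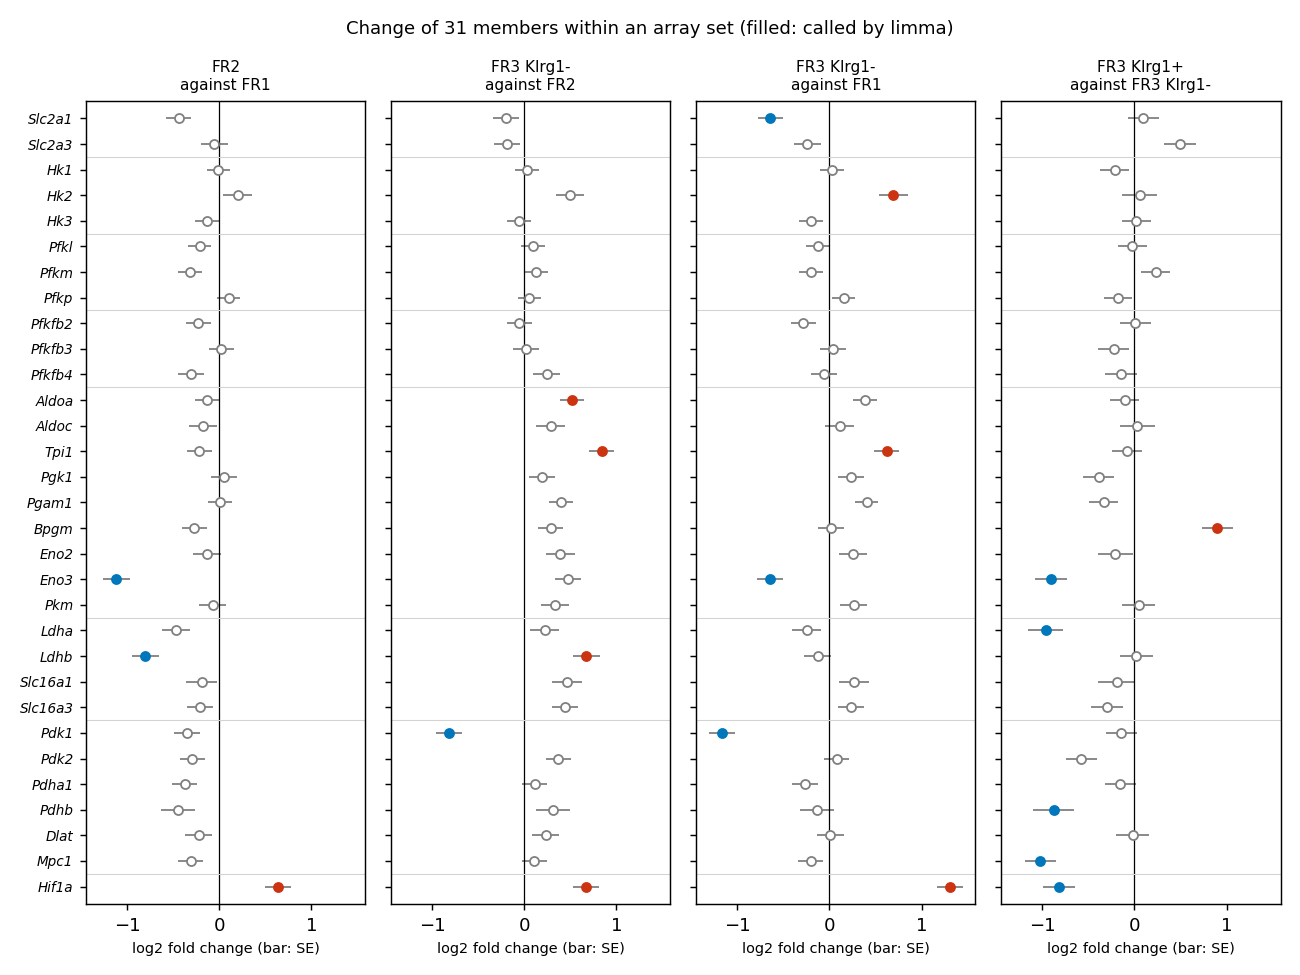
Log2 fold change of each of the 31 measured members (rows, grouped by step of the pathway) in the 4 subset comparisons (panels), with its SE; filled points are called by limma, red for higher and blue for lower. In FR2 against FR1 most points lie left of 0, with a median of -0.21, and in FR3 Klrg1- against FR2 most lie right of it, with a median of 0.24.

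FR3 Klrg1- cells were set against FR2 cells to ask what goes with CD69 among CD62Llo Tregs. In FR3 Klrg1- cells the glycolytic enzymes Tpi1 and Aldoa, Ldhb and Hif1a were higher, and Pdk1, the kinase that switches off pyruvate dehydrogenase, was lower. Over all genes 2.81% were called higher and 1.94% lower. Of the 31 members 4 were higher and 1 lower, with a median of 0.24 against 0.00 over all genes. Among the members, 26 values lay above 0, as did 9807 of 19938. Arrays did not overlap for 20 members that were higher and 4 that were lower, as for 24.7% and 24.2% of all genes. The FR2 arrays are common to this comparison and the one before.

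Triose phosphate isomerase, Tpi1, stood at 8.61 and 8.73 in FR2 and at 9.65 and 9.36 in FR3 Klrg1-. Both FR3 arrays lay above both FR2 arrays, and Tpi1 rose by 0.84 ± 0.14 (SE, n = 2 and 2; limma adjusted p = 0.00208), a 1.79-fold change. Aldoa, the aldolase that splits fructose bisphosphate, went from 10.65 and 10.67 to 11.28 and 11.07. It rose by 0.51 ± 0.13 (limma adjusted p = 0.0338). The 9 measured genes of lower glycolysis all had values above 0, from 0.19 for Pgk1 (phosphoglycerate kinase) to that of Tpi1, with a median of 0.39. Of these 9, 2 were called, and 8 had arrays that did not overlap, as for 2.81% and 24.7% of all genes in this direction. Pgam1, phosphoglycerate mutase, had 8.36 and 8.33 against 8.69 and 8.80 (0.40 ± 0.13, limma adjusted p = 0.106). Its other probe sets gave the same values or, in the dimmest, 0.62 ± 0.14, so reads of a near-identical copy cannot be told apart.

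Among the lactate genes Ldhb had 7.09 and 7.51 in FR2 and 8.01 and 7.93 in FR3 Klrg1-. It rose by 0.67 ± 0.15 (limma adjusted p = 0.0146), back to values near those of FR1, from which it differed by -0.13 ± 0.15 (95% interval -0.44 to 0.18). The dimmer Ldhb probe set gave 0.38 ± 0.20, and with the mean of both probe sets the adjusted p was 0.0533. The monocarboxylate transporters, which carry lactate across the membrane, had 0.46 ± 0.16 for Slc16a1 and 0.44 ± 0.14 for Slc16a3 (limma adjusted p = 0.149 and 0.102).

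Hif1a had 10.55 and 10.49 in FR2 and 11.13 and 11.24 in FR3 Klrg1-, with no overlap, and rose by 0.66 ± 0.14 (limma adjusted p = 0.0126). Pdk1 had 9.03 and 9.07 in FR2 and 8.31 and 8.16 in FR3 Klrg1-. It fell by 0.82 ± 0.14 (limma adjusted p = 0.00289), while Pdk2, a kinase of the same family, had 0.37 ± 0.13 (limma adjusted p = 0.162). The glucose transporters had -0.20 for Slc2a1 and -0.19 for Slc2a3, and neither was called.

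Leaving out FR3 Klrg1- replicate 1 left 0 of the 4 higher calls, with adjusted p of 0.0581 for Tpi1, 0.0736 for Hif1a, 0.146 for Ldhb and 0.364 for Aldoa (limma; 9 members were higher at an unadjusted p under 0.05). The count was 1 without FR3 Klrg1- replicate 2 or FR2 replicate 1 and 2 without FR2 replicate 2, and Pdk1 stood at 0.0509 without FR3 Klrg1- replicate 2. Aldoa was also lost without either FR1 array (0.0506 each).

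From FR1 to FR3 Klrg1- in the first set, the comparison spans the gates for CD62L and CD69 together. Hif1a, Hk2 and Tpi1 were higher in FR3 Klrg1- cells, while Pdk1, Slc2a1 and Eno3 were lower. Over all genes 4.39% were called higher and 3.79% lower. Of the 31 members, 3 were higher and 3 lower, and their median of 0.02 was that of all genes (0.02). Arrays did not overlap for 11 members that were higher and 12 that were lower, as for 25.3% and 23.6% of all genes.

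Hif1a rose by 1.31 ± 0.14 (SE, n = 2 and 2; limma adjusted p = 1.8e-05), a 2.47-fold change. Hk2, the inducible hexokinase, had 6.37 and 6.42 in FR1, 6.40 and 6.79 in FR2 and 7.16 and 7.02 in FR3 Klrg1-. It rose by 0.69 ± 0.15 (limma adjusted p = 0.00924). The other hexokinases had 0.03 ± 0.13 for Hk1 and -0.20 ± 0.13 for Hk3. The Hk1 probe set used lists a single complementary DNA and no RefSeq mRNA, and the dimmer Hk1 probe set that does gave 0.35 ± 0.11. Tpi1 had 8.94 and 8.83 in FR1 and rose by 0.62 ± 0.14 (limma adjusted p = 0.00843).

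Pdk1 had 9.28 and 9.52 in FR1 and fell by 1.17 ± 0.14 (limma adjusted p = 4.81e-05), and FR2 lay between. Slc2a1 fell by 0.64 ± 0.14, from 9.68 and 9.79 to 9.08 and 9.11 (limma adjusted p = 0.00729). Eno3 had 7.52 and 7.80 in FR3 Klrg1-, between FR2 and FR1, and fell by 0.64 ± 0.14 against FR1 (limma adjusted p = 0.00966). Its value against FR2 was 0.47 ± 0.14 (limma adjusted p = 0.0844). Slc2a1 was 1 of 2 uptake genes called and Hk2 1 of 3 hexokinases, while the uptake gene Slc2a3 had -0.24 ± 0.14.

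The second-set arrays of FR3 Klrg1- did not all stand where those of the first set did. Hk2 had 5.98 and 6.29 there, below both FR1 arrays, and Tpi1 had 8.71 and 8.64, also below both. FR1 was read only in the first set, so these positions mix subset and array set and are no check on the calls. First minus second set within FR3 Klrg1-, the difference was 0.96 for Hk2 and 0.83 for Tpi1, larger than their rises of 0.69 and 0.62 from FR1. It was 0.91 for Aldoa, 0.90 for Slc2a1, 0.74 for Hif1a, 0.48 for Pdk1, 0.12 for Eno3 and -0.42 for Ldhb.

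The remaining 25 members were not called, and their values lay between -0.28 for Pfkfb2 and 0.40 for Pgam1. For Pfkfb3, the enzyme that makes the activator of phosphofructokinase, the value was 0.04 (95% interval -0.25 to 0.33). Pfkl, the liver-type subunit of phosphofructokinase, had -0.12 (-0.40 to 0.15). Pkm, pyruvate kinase, had 0.26 (-0.05 to 0.58), and its dimmer probe set, which lists RefSeq mRNAs, gave 0.16 ± 0.16.

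Pdk1 and Hif1a stayed called in each of the 8 fits that left out 1 array (adjusted p of 0.0022 and 0.000803 at most). Hk2 was lost without FR1 replicate 1 or 2 or FR3 Klrg1- replicate 1 (0.0766, 0.0607 and 0.108), and Slc2a1 without FR1 replicate 2 or FR3 Klrg1- replicate 1 or 2 (0.0836, 0.0686 and 0.06). Tpi1 was lost without FR1 replicate 2 (0.0921) or FR3 Klrg1- replicate 1 (0.162), and Eno3 without FR1 replicate 1 (0.106) or FR3 Klrg1- replicate 1 (0.166).

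FR3 Klrg1+ cells were compared with FR3 Klrg1- cells of the second set, to ask what goes with Klrg1 among CD69+ Tregs. The single FR3 Klrg1+ array has no replicate and was assumed to vary like the other groups. Bpgm was higher on it, and Mpc1, Ldha, Eno3, Pdhb and Hif1a were lower. Over all genes 2.14% were called higher and 2.82% lower, and of the 31 members 1 was higher and 5 lower. Their median was -0.15, against 0.00 over all genes. The FR3 Klrg1+ array lay above both others for 3 members and below both for 19, as for 36.5% and 36% of all genes.

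Mpc1, a subunit of the mitochondrial pyruvate carrier, stood at 8.07 and 7.99 in FR3 Klrg1- and at 7.01 in FR3 Klrg1+. It fell by 1.02 ± 0.17 (SE, n = 1 and 2; limma adjusted p = 0.00319). Pdhb had 8.81 and 8.35 against 7.70 and fell by 0.88 ± 0.22 (limma adjusted p = 0.037). Without FR3 Klrg1- replicate 3 its call ended (-0.65, adjusted p = 0.112). All 6 genes of pyruvate entry had values below 0, and Pdk2 had -0.57 ± 0.16 (limma adjusted p = 0.06), from 6.63 and 6.50 to 5.99, with Pdha1 at -0.15 and Dlat at -0.02.

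Ldha had 9.83 and 10.27 in FR3 Klrg1- and 9.09 in FR3 Klrg1+, a fall of 0.96 ± 0.19 (limma adjusted p = 0.00949). Ldhb, by contrast, had 8.42 and 8.36 against 8.41 (0.02 ± 0.18, 95% interval -0.36 to 0.40), and its dimmer probe set gave 0.67 ± 0.24. Eno3 had 7.62 and 7.46 against 6.64 and fell by 0.90 ± 0.18 (limma adjusted p = 0.00942). Hif1a had 10.54 and 10.35 against 9.62 and fell by 0.82 ± 0.17 (limma adjusted p = 0.0139), so that its calls with CD69 and with Klrg1 ran in opposite directions.

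Bpgm, which makes 2,3-bisphosphoglycerate by a side branch of glycolysis and is known for that role in red cells, had 7.77 and 7.71 in FR3 Klrg1- and 8.64 in FR3 Klrg1+. It rose by 0.90 ± 0.17 (limma adjusted p = 0.00807), a 1.87-fold change. Erythroid markers, of which 7 of 12 were measured, had a summed level (log2) of 8.77 and 8.79 in FR3 Klrg1- of this set and 8.92 in FR3 Klrg1+. In limma 0 of the 7 were called in this comparison, and 2 were higher and 0 lower at an unadjusted p under 0.05. The FR3 Klrg1+ array lay above both others for 5 of the 7 and below both for 2, as for 36.5% and 36% of all genes. The erythroid factor Klf1 had 5.70 and 5.48 against 6.17, and Epb42, a red cell membrane protein, had 5.01 and 4.90 against 4.65. Alas2, the erythroid enzyme of haem synthesis, had 6.12 and 6.11 against 6.24. Across all grouped arrays the list's sum ran from 8.39 to 8.92. Their part in the Bpgm value was not tested.

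The glucose transporters had 0.49 ± 0.18 for Slc2a3 (8.49 and 8.23 against 8.85, limma adjusted p = 0.129) and 0.10 ± 0.17 for Slc2a1. Phosphofructokinase subunits lay between -0.18 for Pfkp and 0.23 for Pfkm, and Pkm had 0.05 ± 0.18. The calls of Mpc1, Ldha, Eno3, Hif1a and Bpgm held without either FR3 Klrg1- array of the set, which is no check on the single FR3 Klrg1+ array.

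Between the array sets, within FR3 Klrg1- itself, the members differed more than between subsets. Arrays of the first set were higher than those of the second for 20 of 31 members and lower for 2, while 19.3% of all genes were higher and 18.9% lower, or 38.3% in all (limma). Arrays did not overlap for 22 members that were higher and 4 that were lower, as for 32.2% and 34.5% of all genes. The members' median difference was 0.57, against -0.02 over all genes, and for 19 of the 31 it was larger in size than any of their 4 subset differences. The labels name no feature that differs between the sets. Markers of the sorted cells differed with them: 5 of 7 T cell markers, 4 of 6 Treg markers and 3 of 4 sort markers were higher in the first set, and 1, 1 and 0 were lower. Cd69 had 12.02 and 12.16 in the first set against 10.24 and 9.73, Cd4 11.65 and 11.60 against 10.03 and 9.86, and Foxp3 10.70 and 10.65 against 9.63 and 9.95. Their part in the member differences was not tested. Without single FR3 Klrg1- arrays, the calls of Aldoc, Pdk1, Pfkfb4, Pgk1, Hk3 and Ldhb were lost in at least 1 fit each.

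Slc16a1 differed most, with 9.09 and 9.05 in the first set and 7.33 and 7.05 in the second (1.87 ± 0.16, SE, n = 2 and 2; limma adjusted p = 4.01e-07). Pkm had 10.73 and 10.65 against 8.72 and 9.15 (1.76 ± 0.15, limma adjusted p = 2.97e-07), and its dimmer probe set gave 1.47 ± 0.16. Ldha had 11.50 and 11.46 against 9.83 and 10.27 (1.43 ± 0.15), Pdha1, the alpha subunit of pyruvate dehydrogenase, 1.35 ± 0.14, and Slc2a3 1.33 ± 0.14. Hk3 (-0.44 ± 0.13) and Ldhb (-0.42 ± 0.15) were lower in the first set, and the dimmer Ldhb probe set gave 0.16 ± 0.20. Members with a small set difference were Mpc1 (0.10 ± 0.14), Dlat (0.11 ± 0.15) and Eno3 (0.12 ± 0.14). A level of Ldha, Pkm or Slc16a1 in FR3 Klrg1+ can therefore not be set against FR1 or FR2.

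**Figure D3:**
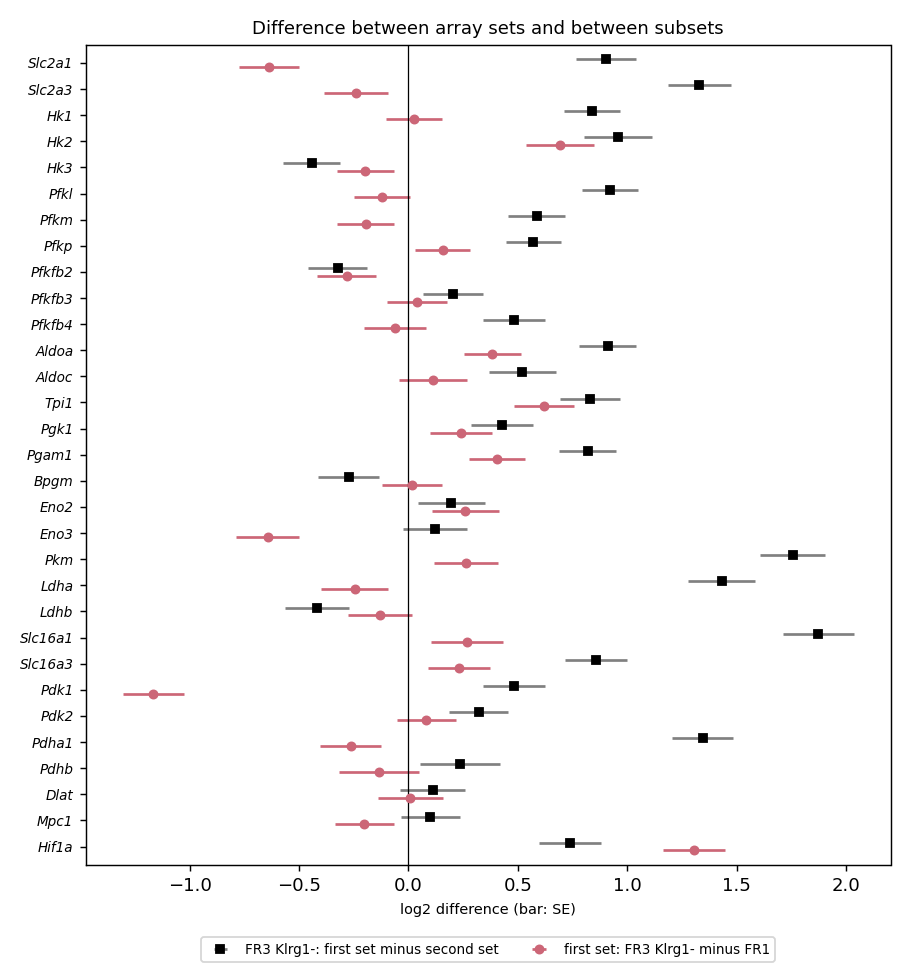
Difference between the array sets within FR3 Klrg1- (black squares, first minus second) beside the difference of FR3 Klrg1- from FR1 within the first set (red circles) for each of the 31 members (rows), as log2 differences with SE. The squares reach 1.87 for Slc16a1 and 1.76 for Pkm, where the circles lie at 0.27 and 0.26, while for Pdk1 and Hif1a the circles (-1.17 and 1.31) lie farther from 0 than the squares (0.48 and 0.74).

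Other genes of these pathways were read from lists chosen by function. Of 30 other measured genes of glycolysis, transport and pyruvate dehydrogenase, 0 rose and 1 fell in FR2 against FR1 (Pdhx, a pyruvate dehydrogenase component, -0.58 ± 0.15). Of all genes 1.96% rose and 2.3% fell there, and 4.39% and 3.79% in FR3 Klrg1- against FR1. In the latter comparison 1 of these 30 rose and 0 fell (Pdk3, 0.78 ± 0.17). Limma called 0 of them in FR3 Klrg1- against FR2 and 0 in FR3 Klrg1+ against FR3 Klrg1-, with 5 higher and 1 lower at an unadjusted p under 0.05 in each. Over all 19938 genes those counts were 1793 and 1336 in the former comparison and 1871 and 2106 in the latter. Pdk3, another kinase of pyruvate dehydrogenase, thus rose from 7.57 and 7.97 to 8.49 and 8.61 (limma adjusted p = 0.00697) between the groups where Pdk1 fell.

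Of 23 HIF pathway regulators and targets outside glycolysis, 2 rose and 0 fell in FR2 against FR1 (of all genes 1.96% and 2.3%). In FR3 Klrg1- against FR2, 1 rose and 1 fell (of all genes 2.81% and 1.94%). Against FR1, 2 rose and 1 fell in FR3 Klrg1- (of all genes 4.39% and 3.79%). Bhlhe40, a transcription factor that HIF-1 and T cell activation are known to induce, had 8.61 and 9.03 in FR1, 9.62 and 9.84 in FR2 and 10.90 and 11.23 in FR3 Klrg1- of the first set. It rose by 2.25 ± 0.17 from FR1 (limma adjusted p = 5.09e-07). The second-set arrays of FR3 Klrg1- had 8.97 and 8.70, a set difference of 2.23 ± 0.17. Egln3, an oxygen sensor that marks HIF for decay and is a HIF target, rose by 1.05 ± 0.17 in FR2 (adjusted p = 0.00218). P4ha1, a collagen prolyl hydroxylase and HIF target, fell by 0.86 ± 0.15 in FR3 Klrg1- against FR1 (9.54 and 9.76 to 8.76 and 8.81, adjusted p = 0.00121). In FR3 Klrg1- against FR1 the calls of this list went both ways. The part of Hif1a in them was not tested.

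In FR3 Klrg1+ the list had 2 higher and 0 lower (of all genes 2.14% and 2.82%). Epas1, which encodes the alpha subunit of HIF-2, had 6.28 and 6.27 in FR3 Klrg1- of the second set and 8.27 in FR3 Klrg1+, a rise of 1.99 ± 0.16 (limma adjusted p = 6.09e-06) beside the fall of Hif1a. Bnip3, a mitophagy receptor and HIF target, rose by 0.58 ± 0.15 (adjusted p = 0.042). In the first set Epas1 lay between 6.39 and 6.72 in the 3 subsets, and none of its differences there was called.

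**Figure D4:**
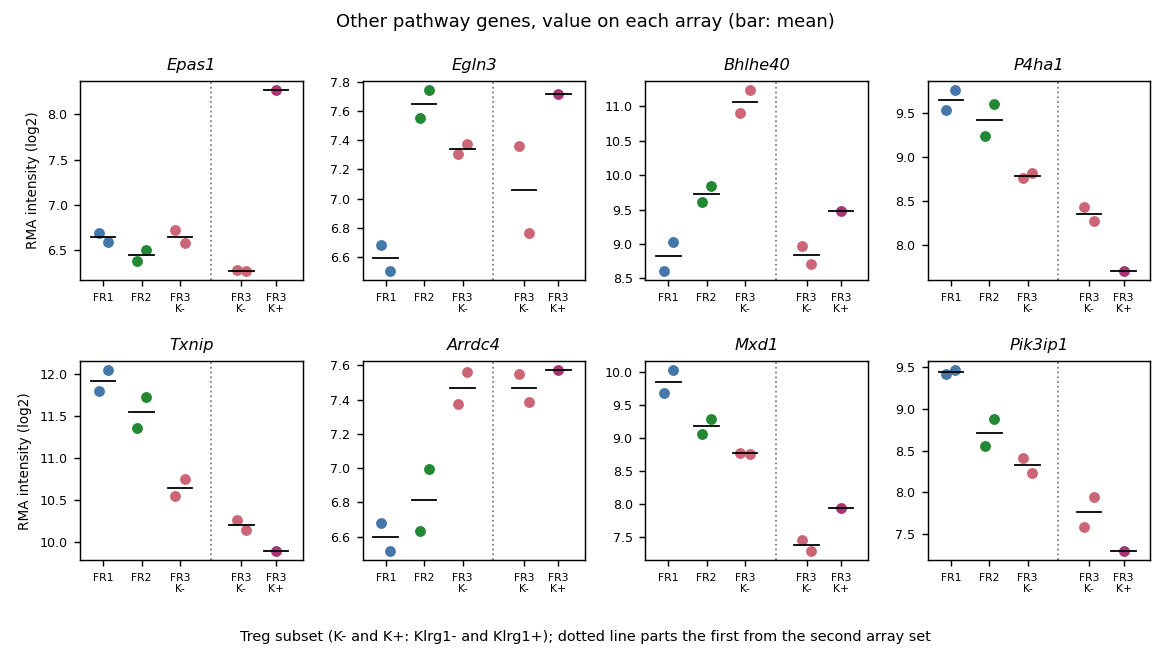
Value of 8 other pathway genes on each of the 9 grouped arrays (y axis, RMA intensity, log2; x axis, Treg subset), with a bar at the mean and a dotted line between the array sets. Epas1 stands at 8.27 in FR3 Klrg1+ and between 6.27 and 6.72 on the other 8 arrays, and Txnip runs from 11.79 and 12.04 in FR1 down to 10.55 and 10.74 in FR3 Klrg1- of the first set.

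Of 26 measured regulators of mTORC1, Myc and AMPK, 0 rose and 3 fell in FR2 against FR1 (of all genes 1.96% and 2.3%). In FR3 Klrg1- against FR2, 3 rose and 1 fell (of all genes 2.81% and 1.94%). Against FR1, 2 rose and 6 fell in FR3 Klrg1- (of all genes 4.39% and 3.79%). In FR3 Klrg1+, 0 rose and 1 fell (of all genes 2.14% and 2.82%). Txnip, an arrestin that restrains glucose uptake, fell by 1.27 ± 0.15 in FR3 Klrg1- against FR1 (limma adjusted p = 4.82e-05). Arrdc4, an arrestin of the same family, rose by 0.87 ± 0.15, from 6.68 and 6.52 to 7.38 and 7.56 (adjusted p = 0.00122). Pik3ip1, an inhibitor of PI3 kinase, fell by 1.11 ± 0.16 and Mxd1, a partner of Max that opposes Myc, by 1.08 ± 0.15. These genes fell in FR2 against FR1 too, by 0.72 and 0.67, as did Prkag1, a subunit of AMPK, by 0.51. In FR3 Klrg1- against FR2 the calls were Txnip (-0.89), Mxd4 (0.73), Arrdc4 (0.65) and Sesn3 (0.52). The second-set arrays of FR3 Klrg1- had 8.80 and 9.10 for Mxd4 and 10.15 and 10.09 for Sesn3, not above either FR2 array. For Txnip (10.26 and 10.14) and Arrdc4 (7.55 and 7.39) they lay on the same side of FR2 as in the first set. FR2 was read only in the first set, so these positions mix subset and array set and are no check on the calls. The fall in FR3 Klrg1+ was that of Mlst8, a subunit of the mTOR complexes (-0.72 ± 0.19).

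Of 17 genes of the tricarboxylic acid cycle, which burns the acetyl groups made from pyruvate, 0 rose and 2 fell in FR2 against FR1 (Sdhb, -0.60 ± 0.14, and Idh3g, -0.57 ± 0.13). Of all genes 1.96% rose and 2.3% fell in that comparison. In FR3 Klrg1- against FR2, 2 rose and 0 fell (Fh1, 0.57 ± 0.14, and Idh3g, 0.50 ± 0.13). Of all genes 2.81% rose and 1.94% fell there. Idh3g had 10.49 and 10.58 in FR1, 9.84 and 10.07 in FR2 and 10.50 and 10.42 in FR3 Klrg1-, lowest in FR2, where Ldhb was lowest too. Against FR1, 0 rose and 1 fell in FR3 Klrg1- (Idh2, -0.54 ± 0.13), where 4.39% of all genes rose and 3.79% fell. In FR3 Klrg1+, 0 rose and 1 fell (Suclg1, -0.72 ± 0.18), where 2.14% of all genes rose and 2.82% fell. Of 8 pentose phosphate genes 1 was called in any of these 4 comparisons, Prps1, which fell by 0.68 ± 0.14 in FR2 (limma adjusted p = 0.0128).

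Genes on the lists of other cell types were read beside the members. Cybb, an oxidase subunit listed as a myeloid marker, had 6.67 and 6.92 in FR1, 8.73 and 8.64 in FR2 and 10.39 and 10.47 in FR3 Klrg1- of the first set. Of 9 measured markers of macrophages and monocytes it was the one called in FR3 Klrg1- against FR1 (3.64 ± 0.15), and it fell in FR3 Klrg1+ (-0.70 ± 0.18). The summed level (log2) of this list was 8.84 to 9.01 in FR1, 9.59 to 9.63 in FR2, 10.7 to 10.8 in FR3 Klrg1- of the first set, 10.4 to 10.7 in the second and 10.0 in FR3 Klrg1+. Outside FR1, Cybb was the brightest gene of this list on each grouped array, so the sum there mostly follows Cybb. Cd68, the next brightest there, had 7.19 and 7.35 in FR1 and 7.05 and 7.23 in FR3 Klrg1- of the first set. In FR3 Klrg1- against FR1, 7 of the 9 had values above 0, as did 10654 of 19938 genes. Over all genes, arrays did not overlap for 25.3% that were higher and 23.6% that were lower, and among the 9 for 6 and 0. Of these, the lysozyme gene Lyz2 had 4.60 and 4.61 in FR1 and 4.73 and 5.11 in FR3 Klrg1-, and the macrophage receptor Adgre1 4.60 and 4.57 against 4.62 and 4.71. The lists of the remaining cell types, B cells to CD8 T cells, had summed levels between 7.16 and 9.44, against 14.1 to 14.5 for the T cell markers. From those lists limma called Car2 higher in FR2 against FR1 (0.78), and Klrb1c higher (1.09) and Itgb3 lower (-1.01) in FR3 Klrg1- against FR2. In FR3 Klrg1- against FR1 it called Klrb1c (1.15), Cd22 (0.94) and Car2 (0.83) higher and Itgb3 (-1.24), Cd79a (-0.68) and Cd8b1 (-0.55) lower. In FR3 Klrg1+ the calls were Itgb3 (0.93), Flt3 (0.91) and the myeloid Fcgr1 (0.68) higher and Klrb1c (-0.66) lower. Cybb was also called in FR2 against FR1 (1.89) and in FR3 Klrg1- against FR2 (1.75).

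Among T cell and Treg markers, Ikzf2 (0.51) rose and Il2ra (-0.73) fell in FR2 against FR1, and Tnfrsf18 (0.78) and Ctla4 (0.52) rose in FR3 Klrg1- against FR2. In FR3 Klrg1- against FR1, Ikzf2 (0.75), Ctla4 (0.61), Tnfrsf18 (0.56), Cd4 (0.50) and Cd3e (0.49) rose and Il2ra (-0.47) fell. In FR3 Klrg1+, Tnfrsf18 (0.81) rose and Cd28 (-0.62) fell. The part of other cells in the member values was not tested.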

How the data were processed

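Total RNA of sorted Tregs (20 to 50 ng per sample) was amplified in a single round and read on Mouse Gene ST 1.0 arrays of Affymetrix, per the labels. The deposited values are log2 intensities per probe set, made with RMA per the submitters' processing notes, with no version given in the sources used here. Nothing there says whether RMA was run over all of them at once. Of 35556 probe sets, 21789 had 1 gene symbol, 1621 several and 12146 none in the platform annotation. The brightest probe set per gene over the grouped arrays was kept, with no intensity filter, which left 19938 genes. The annotation gives no positions, so probe sets that may read near-identical copies of Pkm, Pgk1, Pgam1, Ldhb or Hk1 were not separated.

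Groups follow the gate written in each title. Another array, titled FR3 with the markers of FR1, was placed in no group. Array sets were taken from an earlier analysis of these data and checked by correlation. The members, lists, tests and alternatives were chosen with earlier results of these data known. The 5 comparisons used 1 fit in limma 3.58.1 (R 4.3.3) with 4 residual degrees of freedom per gene, moderated variances and Benjamini-Hochberg adjustment. The fit was tested on simulated data. Members called, or changed by at least 0.5, were described by array, and of each pathway list the 4 or fewer called genes with the largest change. Array medians lay between 6.15 and 6.31, and the number of arrays limits the precision.

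Alternatives were an intensity trend, leaving out genes under percentile 40, quantile normalization, the mean of probe sets, no array set term, the arrays of 1 set, array weights, the replicate block, a change of at least 0.5, and leaving out each array. A RefSeq mRNA requirement for the probe set was added after the data were seen.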

Additional observations from a re-analysis of the deposited data

How the results depend on the processing

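The number of arrays sets the limits: SEs of member differences ran from 0.125 to 0.224, and of the 20 member calls between subsets 8 were kept in each of the 8 fits that left out 1 array. With no array set term 2 of the 20 were kept, Eno3 and Pdk1 in FR3 Klrg1- against FR1, and limma called 0 members on either side in the other subset comparisons and 0 higher in that one, in place of 1 higher and 2 lower in FR2 against FR1, 4 and 1 in FR3 Klrg1- against FR2, 3 higher in FR3 Klrg1- against FR1, and 1 and 5 in FR3 Klrg1+. At an unadjusted p under 0.05 these were 0 and 2, 3 and 1, 1 higher, and 1 and 7. That fit called 52, 55, 439 and 22 genes in the 4 subset comparisons, where 850, 948, 1632 and 989 were called with it. With an intensity trend 4 members were lower in FR2 against FR1 (3.7% of all genes, in place of 2.3%) and 5 higher in FR3 Klrg1- against FR1 (5.03%, in place of 4.39%). Without dim genes, which drops Hk3, 8 were higher in FR3 Klrg1- against FR2 (6.8% of genes, in place of 2.81%) and 5 in FR3 Klrg1- against FR1 (8.32%). Array weights gave 8 higher in FR3 Klrg1- against FR2 (4.85% of genes) and 1 lower between the sets, where 2 were lower. Between the sets the lower count was also 4 with quantile normalization, 1 with the mean of probe sets and 0 with a change of at least 0.5. Quantile normalization gave 2 higher in FR3 Klrg1+ (3.03% of genes, in place of 2.14%). In FR2 against FR1 quantile normalization called 418 genes higher and 318 lower, against 391 and 459, and leaving out dim genes and using the first set alone took the 850 calls there to 1401 and 1331. Array weights gave 1618 in place of 948 in FR3 Klrg1- against FR2. The cause of these moves was not tested. The RefSeq mRNA requirement moved no member count. None of the 20 member calls between subsets changed sign under these settings. That statement does not cover members called only under an alternative.

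Leaving out each array in turn gave 0 to 1 members higher and 1 to 3 lower in FR2 against FR1, 0 to 6 and 0 to 1 in FR3 Klrg1- against FR2, 1 to 4 and 1 to 3 in FR3 Klrg1- against FR1, 1 and 4 to 6 in FR3 Klrg1+, and 17 to 20 and 0 to 2 between the sets. Over all genes, the calls in the 4 subset comparisons then ran from 253 to 1331, 302 to 1318, 910 to 2063 and 721 to 1553. The replicate numbers were shared by FR1, FR2 and FR3 Klrg1- in the first set. Deviations of same-numbered arrays correlated at 0.18, 0.14 and 0.02 across genes. With 2 arrays per group, these values cannot show whether same-numbered arrays were paired. With the replicate block the member counts were the same, 1 and 2, 4 and 1, 3 and 3, 1 and 5, and 20 and 2, and 750, 812, 1550 and 848 genes were called in the 4 subset comparisons.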

Other observations

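The array placed in no group was titled FR3 with the marker text of FR1 cells. Its Klrg1 value was 12.41, where FR3 Klrg1+ had 12.33 and the other grouped arrays between 5.43 and 7.47. It correlated at 0.982 to 0.986 with the arrays of the second set and at 0.926 to 0.942 with those of the first. Among the members it had 8.22 for Bpgm, 7.39 for Mpc1, 7.14 for Eno3, 8.16 for Pdhb, 9.81 for Ldha and 10.01 for Hif1a. For Bpgm, Mpc1, Eno3, Pdhb, Ldha and Hif1a these values lie between the FR3 Klrg1+ array and the nearest FR3 Klrg1- array of the second set. Its Epas1 value was 7.41, also between them. For Ldhb it had 7.84, below the 8.36 to 8.42 of the second set, and for Pdk1 6.99, below every grouped array.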
